A study of Mus musculus with 32 samples.

Results

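The 26S proteasome genes described here are 32 genes that encode subunits of this protease, out of 34223 genes in a table of normalised read counts from single mouse embryos. They were chosen by symbol: 14 of the 20S core (Psma1 to Psma7 and Psmb1 to Psmb7), 10 of the base of the 19S cap (Psmc1 to Psmc6, Psmd1, Psmd2, Psmd4 and Adrm1) and 8 of its lid (Psmd3, Psmd6, Psmd7, Psmd8, Psmd11, Psmd12, Psmd13 and Psmd14). Every library was 1 wild-type late 2-cell embryo, taken 28 h after in vitro fertilisation, and every embryo carried microinjected mRNA for histone H3.3 joined to green fluorescent protein. In 16 embryos (Val_LNA) the injection also held an antisense oligonucleotide with locked nucleic acid bases against tRFValCAC, a fragment of a valine tRNA. In the other 16 (Ctrl_LNA) it held a scrambled oligonucleotide of the same chemistry. Only GFP-positive embryos were kept, no uninjected embryos were analysed here, and the injected H3.3-GFP message is common to both. The comparison asks which transcripts differ when the fragment is inhibited. No label ties embryos to separate matings or injection days, so a p-value here measures the spread between embryos only.

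Proteasomes degrade proteins that carry ubiquitin chains. The 20S core is a barrel of alpha and beta rings with the proteolytic sites inside the beta rings. The base holds a ring of AAA ATPases that unfolds substrates and threads them into the barrel, with ubiquitin receptors beside it, and the lid carries the enzyme that removes ubiquitin before degradation. In the early mouse embryo, proteins stored in the egg are cleared by ubiquitin-dependent proteolysis while the embryo starts transcription from its own genome.

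Recovered depth lay between 2592925 and 6259870 reads per embryo. One control stood apart: in Ctrl_LNA 48 only 7276 genes were detected, against 16687 to 20200 in the other 31 embryos, although its depth lay within their range. Of the 32 proteasome genes 15 had their highest value of all embryos in Ctrl_LNA 48, 4 had their lowest, and 5 (Psma1, Psmb4, Psmb7, Psmc6 and Psmd13) were at 5 reads or fewer. Results are therefore given with and without it. Library numbers form 4 runs of 8, namely Val_LNA 1 to 8 and 13 to 20 and Ctrl_LNA 31 to 38 and 43 to 50. The labels do not call them batches, and 1 to 8 against 31 to 38 (lower runs) and 13 to 20 against 43 to 50 (upper runs) are given as comparisons with no embryo in common. All libraries held some transcripts of the 2-cell stage and of the egg. Summed counts of 10 genes of the 2-cell stage were 5932 to 22552 (median 9812) in Val_LNA and 3712 to 25994 (median 6903) in Ctrl_LNA, and those of 11 egg-derived RNAs were 17472 to 107186 (median 44765) in Val_LNA and 10022 to 82231 (median 31577) in Ctrl_LNA. In Ctrl_LNA 48, 2 of the 10 genes of the 2-cell stage and 2 of the 11 egg-derived RNAs were at 0. Its egg-derived sum of 10022 came mostly from Btg4 (4715), Zbed3 (3768) and Zp3 (1471). There Gdf9 and Mos had 0 counts, Zp1, Zp2 and Padi6 had 1.05 each and Nlrp5 had 3.15. Sums of 9 cumulus and granulosa cell genes reached 412 in Val_LNA and 687 in Ctrl_LNA. Their median was 28.3 in Val_LNA and 12.8 in Ctrl_LNA. Of these genes Tnfaip6 was above 0 in 13 Val_LNA and 9 Ctrl_LNA embryos, with a median of 23.2 counts in Val_LNA and 1.98 in Ctrl_LNA and a log2 fold change of 2.03 that did not pass (limma adjusted p = 0.107, unadjusted p = 0.00384). Cyp11a1 was above 0 in 7 Val_LNA and 6 Ctrl_LNA embryos, and Has2 in 2 Val_LNA and 7 Ctrl_LNA embryos. The other 6 genes, among them Fshr and Foxl2, which mark granulosa cells, were above 0 in at most 2 Val_LNA and 4 Ctrl_LNA embryos each. The part of these differences in the values below was not tested. Since a library is a whole embryo, a lower count in 1 blastomere and a lower count in both cannot be told apart.

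Psmd11, a scaffold subunit of the lid, fell to a mean of 635 normalised counts in Val_LNA embryos, against 1518 in Ctrl_LNA embryos, and it was the only gene of the 32 that passed in limma over all embryos. No gene of the set rose. A call here is a Benjamini-Hochberg adjusted p under 0.05 over 15559 tested genes, of which 1.31% were called lower and 0.881% higher. All 32 proteasome genes were among those tested. Without Ctrl_LNA 48, Psmd11 and the beta-ring gene Psmb4 were called lower, against 2.63% of all tested genes, and 0 of 32 higher, against 1.57%. At an unadjusted p under 0.05, 9 of 32 were lower and 1 higher with all embryos, against 5.85% and 8.88% of all tested genes. Without Ctrl_LNA 48 these were 5 of 32 lower and 2 higher, against 8.46% and 8.28%. None of the 32 genes had values that kept the groups apart, against 0.0321% of all tested genes.

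Other fits made 0 to 2 calls among the 32 genes. EdgeR called 1 proteasome gene lower, against 1.05% of tested genes, and 0 higher, against 0.186%, and without Ctrl_LNA 48 again 1 lower (background 1.61%) and 0 higher (0.54%). DESeq2 called 1 lower (background 2.17%) and 0 higher (1.32%), and without Ctrl_LNA 48 again 1 lower (2.58%) and 0 higher (1.71%). With every embryo centred on its own median, limma called 1 lower (background 1.93%) and 0 higher (0.392%), and 2 lower (2.78%) and 0 higher (1.2%) without Ctrl_LNA 48. With array weights it called 2 lower (3.62%) and 0 higher (2.27%), with a pseudocount of 5 it called 1 lower (1.63%) and 0 higher (1.19%), and without the filter on low values 1 lower (0.465%) and 0 higher (0.254%). Between the lower runs 0 were called lower (0.533%) and 0 higher (0.623%), between the upper runs 1 lower (0.212%) and 0 higher (0.0129%), and between the upper runs without Ctrl_LNA 48 also 1 lower (0.797%) and 0 higher (0.045%). In each fit with a call Psmd11 was the gene or 1 of the pair.

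The direction was uneven over the complex. Of the 32 log2 fold changes (the difference of mean log2(normalised count + 1), Val_LNA minus Ctrl_LNA) 24 were negative, where 35.7% of all tested genes were. Their median was -0.25 where the median of all tested genes was 0.26. Without Ctrl_LNA 48, 24 were again negative, where 45.8% of all tested genes were. The medians were then -0.23 for the set and 0.07 for all tested genes. By subcomplex the median was -0.39 for the base, -0.22 for the lid and -0.16 for the 20S core, and -0.35, -0.18 and -0.06 without Ctrl_LNA 48. The base had the lowest median of the 3 subcomplexes in 11 of 11 fits that were summarised this way, which share most of their embryos. Between the lower runs the medians were -0.28 for the base, -0.05 for the lid and 0.10 for the core, where all tested genes had 0.03. Between the upper runs they were -0.72, -0.48 and -0.34, where all tested genes had 0.44 (-0.59, -0.45 and -0.31 without Ctrl_LNA 48, where all tested genes had 0.07). The difference between the runs passed for 0 of 32 proteasome genes in limma, and for 0 of all tested genes, with 3 of 32 (Psmc1, Psmb3 and Psmd12) and 5.19% of all tested genes at an unadjusted p under 0.05. These medians carry no test.

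**Figure D1:**
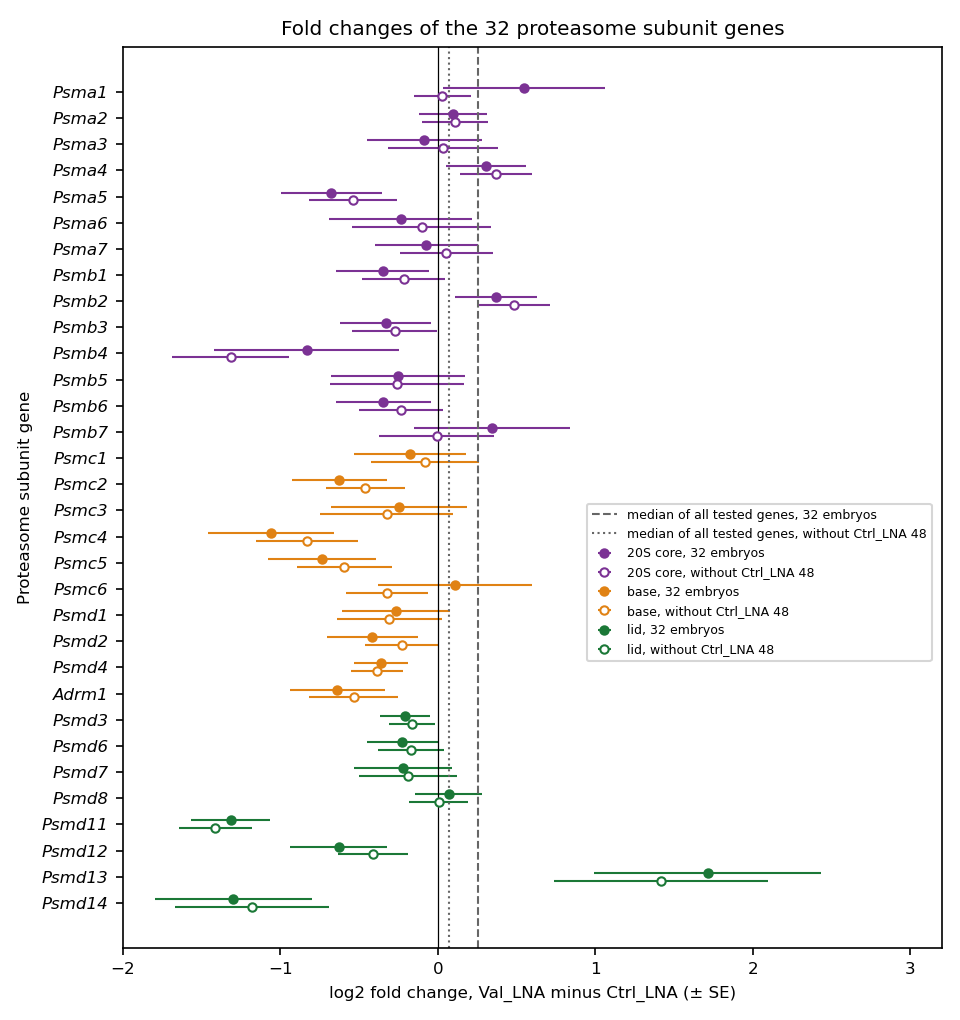
Log2 fold changes (Val_LNA minus Ctrl_LNA, on the x axis, ± SE) of the 32 proteasome subunit genes, grouped from top to bottom as 20S core, base and lid, with filled points for all 32 embryos and open points without Ctrl_LNA 48. Vertical lines are the medians of all tested genes (0.26 dashed, 0.07 dotted); Psmd11 lies at -1.32 with a short error bar, Psmd14 at -1.30 and Psmd13 at 1.71 with long ones, and the base genes lie mostly left of both lines.

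Psmd11 (ENSMUSG00000017428.16, GRCm38 chr11:80428615-80473248, plus strand, protein-coding) encodes a PCI-domain subunit that lies in the lid beside the base. Its normalised counts were lowest 321, median 512 and highest 1955 in Val_LNA embryos, against 507, 1480 and 2381 in Ctrl_LNA embryos. In 15 of 16 Val_LNA embryos the count was under the median of the controls, and in 8 of 16 it was under every control. The groups overlap: 8 of 16 Val_LNA embryos were over the lowest control, and the highest of them, Val_LNA 7 (1955), lay in the upper range of the controls. The lowest control was Ctrl_LNA 48 (507), and without it the controls began at 671 and 11 of 16 Val_LNA embryos lay below all of them and 5 above the lowest. Val_LNA embryos averaged 635 ± 409 and Ctrl_LNA embryos 1518 ± 614 (SD, n = 16 each). This is a log2 fold change of -1.32 ± 0.25 (SE, limma adjusted p = 0.00152). The value without Ctrl_LNA 48 was -1.41 ± 0.23 (limma adjusted p = 0.000152). The call was made by edgeR (-1.35, adjusted p = 0.00485) and by DESeq2 (-1.26, adjusted p = 0.000136) as well, and leaving out any 1 embryo gave -1.44 to -1.26.

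Within the lower runs Psmd11 had a median of 747 in Val_LNA 1 to 8 (321 to 1955) and 1342 in Ctrl_LNA 31 to 38 (671 to 2305), a log2 fold change of -0.89 that did not pass (limma adjusted p = 0.306, unadjusted p = 0.0206). Within the upper runs the median was 401 in Val_LNA 13 to 20 (328 to 750) and 1828 in Ctrl_LNA 43 to 50 (507 to 2381), a log2 fold change of -1.75 (limma adjusted p = 0.0238), or -1.97 without Ctrl_LNA 48 (limma adjusted p = 0.000361). All 8 embryos of the upper Val_LNA run were thus at 750 or less. The difference between the runs did not pass (-0.86, limma adjusted p = 0.817), nor did it without Ctrl_LNA 48 (-1.08, limma adjusted p = 0.811). The exons of Psmd11 share no bases with those of another annotated gene.

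The 250 bases before the annotated start of Psmd11 are shown because it is the gene of the set that fell with all embryos, and because the window holds a box found in many of the other cap genes. The sequence is from RefSeq on GRCm38.p6, 5′ to 3′ on the gene's strand, and the capitals mark CTTCCGG, the reverse complement of CCGGAAG, an ETS-family core that begins at position -11 from the start.
Psmd11 (chr11:80428365-80428614, plus strand): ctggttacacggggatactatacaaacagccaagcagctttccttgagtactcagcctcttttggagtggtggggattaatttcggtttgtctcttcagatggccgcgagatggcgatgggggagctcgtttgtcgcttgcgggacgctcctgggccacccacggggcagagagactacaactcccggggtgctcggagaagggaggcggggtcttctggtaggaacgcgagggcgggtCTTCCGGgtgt

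**Figure D2:**
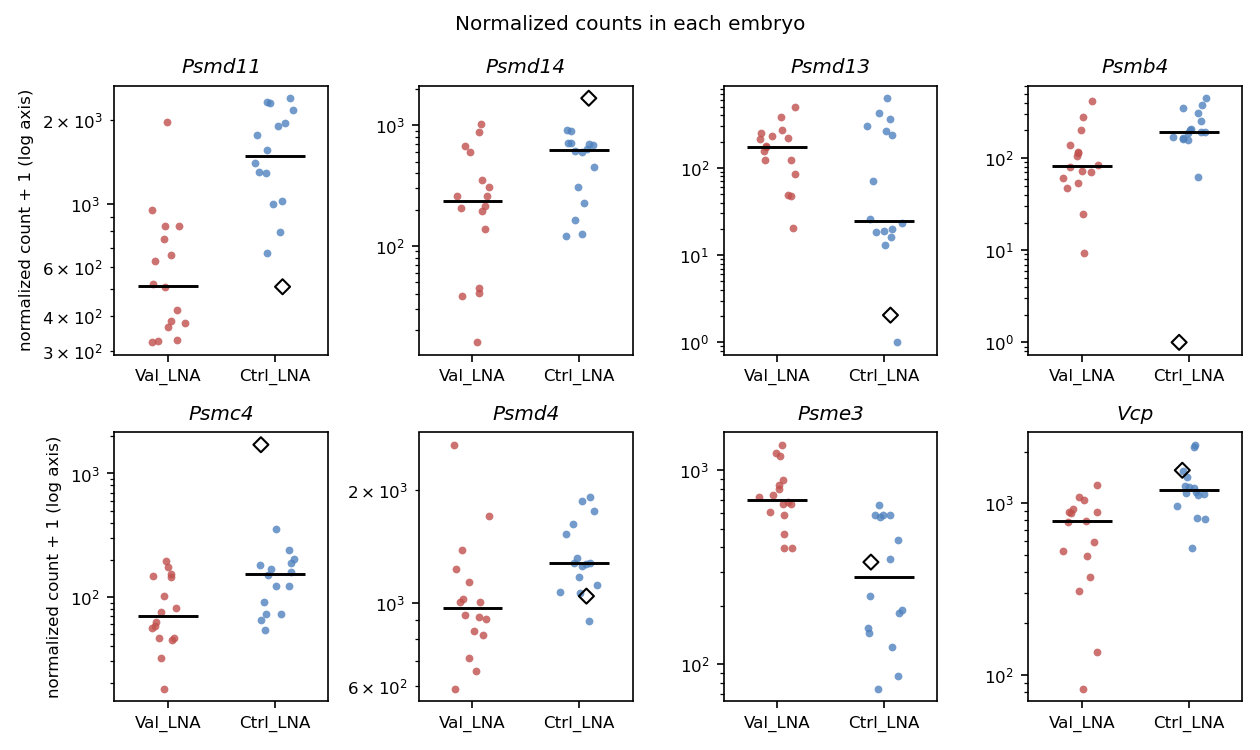
Normalised count + 1 in each embryo (log axis) for 6 proteasome genes and for Psme3 and Vcp, with Val_LNA at the left and Ctrl_LNA at the right of each panel, bars at the group medians of all 16 embryos and an open diamond for Ctrl_LNA 48. Psmd11 counts lie mostly below 1000 in Val_LNA with 1 embryo at 1955, the Psmd13 counts of most controls are either under 30 or above 200, and all Psme3 counts in Val_LNA lie above the control median.

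Among the other lid genes none passed. Psmd14, the metalloprotease that removes ubiquitin from substrates, had counts of lowest 14.9, median 235 and highest 1016 in Val_LNA, against 119, 621 and 1672 in Ctrl_LNA. The highest control was Ctrl_LNA 48, and 4 Val_LNA embryos lay below every control while the groups otherwise overlapped. The log2 fold change was -1.30 ± 0.50 (SE, limma adjusted p = 0.20), and -1.18 ± 0.49 without Ctrl_LNA 48 (limma adjusted p = 0.192). Psmd12, another scaffold subunit, had a log2 fold change of -0.63 (-0.41 without Ctrl_LNA 48, where it had 4678 counts against 210 to 716 in the other controls). Psmd3, Psmd6, Psmd7 and Psmd8 lay between -0.23 and 0.07.

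Psmd13, a further scaffold subunit, was the lid gene with a positive value at an unadjusted p under 0.05. Counts were lowest 19.2, median 173 and highest 495 in Val_LNA, against 0, 23.7 and 627 in Ctrl_LNA. The control values fall apart: 9 of 16 controls, against 1 of 16 Val_LNA embryos, were under 30 counts, and the other 7 controls had 69.3 to 627 counts. The log2 fold change was 1.71 ± 0.72 (SE, limma adjusted p = 0.26), whereas edgeR gave 0.22 (adjusted p = 0.948), where Val_LNA embryos averaged 188 ± 126 and Ctrl_LNA embryos 150 ± 193 (SD, n = 16 each). Without Ctrl_LNA 48 the limma value was 1.42 (adjusted p = 0.283). It was 2.57 between the lower runs (limma adjusted p = 0.219) and 0.86 between the upper runs (limma adjusted p = 0.719), or 0.088 between the upper runs without Ctrl_LNA 48 (limma adjusted p = 0.97). The exons of Psmd13 share 342 bases with those of Sirt3 on the opposite strand, and the libraries do not mark strand, so reads of the pair cannot be told apart there.

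In the base, 9 of 10 log2 fold changes were negative (35.7% of all tested genes), and 10 of 10 without Ctrl_LNA 48 (45.8%), but none passed in limma. Of the ATPases, Psmc4 (Rpt3) had counts of lowest 16.98, median 68.4 and highest 195 in Val_LNA, against 53.3, 153 and 1710 in Ctrl_LNA. That highest value was Ctrl_LNA 48, and the highest of the other controls was 352. In 14 of 16 Val_LNA embryos Psmc4 was under the median of the controls, with a log2 fold change of -1.06 ± 0.40 (SE, limma adjusted p = 0.187), or -0.83 ± 0.32 without Ctrl_LNA 48 (limma adjusted p = 0.157). Psmc5 (Rpt6) had lowest 54.2, median 145 and highest 455 in Val_LNA, against 72.2, 284 and 1170 in Ctrl_LNA, again with the top at Ctrl_LNA 48. Its log2 fold change was -0.74 ± 0.34 (SE, limma adjusted p = 0.313). Psmc1, Psmc3 and Psmc6 lay between -0.25 and 0.11, and between -0.32 and -0.08 without Ctrl_LNA 48.

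Psmd4 and Adrm1, ubiquitin receptors of the base, did not pass. Psmd4 (Rpn10) had counts of lowest 588, median 964 and highest 2638 in Val_LNA, against 892, 1271 and 1918 in Ctrl_LNA. The single highest embryo was a Val_LNA embryo, yet 13 of 16 Val_LNA embryos were under the median of the controls and 5 under every control, for a log2 fold change of -0.36 ± 0.17 (SE, limma adjusted p = 0.318). Adrm1 (Rpn13) had lowest 107, median 537 and highest 961 in Val_LNA, against 236, 762 and 1917 in Ctrl_LNA. The 1917 was Ctrl_LNA 48, and the highest of the other controls was 1211. In 14 of 16 Val_LNA embryos Adrm1 was under the median of the controls. Its log2 fold change was -0.64 ± 0.30 (SE, limma adjusted p = 0.318), or -0.53 without Ctrl_LNA 48. Psmd1 and Psmd2, the large scaffold subunits of the base, had -0.26 and -0.42. Of the 10 base genes 5 had an unadjusted p under 0.05 with all embryos (Psmc2, Psmc4, Psmc5, Psmd4 and Adrm1), all lower, where 5.85% of all tested genes were lower at that threshold. Without Ctrl_LNA 48 there were 2 (Psmc4 and Psmd4), where 8.46% of all tested genes were lower.

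In the 20S core, the alpha and beta rings gave different medians, -0.07 for the alpha genes and -0.33 for the beta genes, and 0.03 and -0.23 without Ctrl_LNA 48. Psmb4 (beta7), a beta subunit without a proteolytic site, was the core gene whose call turned on 1 control. Its counts were lowest 8.24, median 81.5 and highest 421 in Val_LNA, against 0, 192 and 446 in Ctrl_LNA. The 0 was Ctrl_LNA 48, the other controls began at 61.5, and 5 Val_LNA embryos lay below all of these. With all embryos the log2 fold change was -0.83 ± 0.59 (SE, limma adjusted p = 0.499), and without Ctrl_LNA 48 it was -1.31 ± 0.37 (limma adjusted p = 0.0342). EdgeR (adjusted p = 0.198) and DESeq2 (adjusted p = 0.0889) did not call Psmb4 without that embryo. Between the lower runs its value was -1.27, and between the upper runs -0.40, or -1.36 without Ctrl_LNA 48.

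Psma5, an alpha-ring gene, had counts of lowest 67.3, median 192 and highest 470 in Val_LNA, against 93.9, 314 and 1277 in Ctrl_LNA, with the highest in Ctrl_LNA 48. In 13 of 16 Val_LNA embryos Psma5 was under the median of the controls. Its log2 fold change was -0.68 ± 0.32 (SE, limma adjusted p = 0.318), or -0.54 without Ctrl_LNA 48. Other core genes lay on the positive side without passing. Psmb2, the beta4 subunit, had lowest 322, median 465 and highest 935 in Val_LNA, against 142, 362 and 1265 in Ctrl_LNA, and 13 of 16 Val_LNA embryos were over the median of the controls. The 1265 was Ctrl_LNA 48, and the highest of the other controls was 815. The log2 fold change of Psmb2 was 0.37 ± 0.26 (SE, limma adjusted p = 0.50). Without Ctrl_LNA 48 it was 0.48 and did not pass. Its limma unadjusted p was then under 0.05, where 8.28% of all tested genes were higher at that threshold. Psma4 had lowest 205, median 305 and highest 518 in Val_LNA, against 59.6, 296 and 571 in Ctrl_LNA, and a log2 fold change of 0.30 ± 0.25 (SE, limma adjusted p = 0.573). Centring the embryos on their own medians shifts the log2 fold change of every gene alike and takes the median of all tested genes to -0.19, and on that scale Psmb2 had -0.080 and Psma4 -0.14, both above that median. Psma1 had lowest 229, median 672 and highest 1036 in Val_LNA, against 1.05, 620 and 980 in Ctrl_LNA, where the 1.05 was Ctrl_LNA 48. Its log2 fold change of 0.54 became 0.03 without that embryo, and with centring in addition, which again shifts every gene alike, -0.039. The catalytic subunit genes Psmb5, Psmb6 and Psmb7 had -0.25, -0.35 and 0.34, and -0.26, -0.23 and -0.01 without Ctrl_LNA 48.

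Within each embryo, the summed counts of the 32 genes were 9375 to 25087 (median 12924) in Val_LNA and 12041 to 39960 (median 17096) in Ctrl_LNA, the highest of which was Ctrl_LNA 48. Their share of all counts was 0.334% ± 0.116 in Val_LNA (SD, n = 16) and 0.421% ± 0.118 in Ctrl_LNA without Ctrl_LNA 48 (SD, n = 15). Of the summed counts, the 20S core took 40.4% ± 2.49 in Val_LNA embryos and 34.9% ± 3.85 in Ctrl_LNA embryos (SD, n = 16 each). The lid took 29.4% ± 2.24 in Val_LNA and 32.5% ± 3.50 in Ctrl_LNA, and the base 30.3% ± 3.52 in Val_LNA and 32.6% ± 5.80 in Ctrl_LNA. Ranges overlap for all 3 shares. With Psmd11 taken out of the sums, the lid share was 26.2% ± 2.25 in Val_LNA and 26.1% ± 3.098 in Ctrl_LNA, the core share 42.2% ± 2.34 in Val_LNA and 38.3% ± 4.77 in Ctrl_LNA, and the base share 31.7% ± 3.77 in Val_LNA and 35.7% ± 5.66 in Ctrl_LNA. The lid shares therefore lay close together apart from Psmd11, but a share does not show the level of its genes. The 7 other lid genes had a median log2 fold change of -0.22, where all tested genes had 0.26. Of these 7 genes, 5 were negative and 2 positive. Psmd11 alone took 14.7% ± 4.67 of the lid counts in Val_LNA (7.85% to 23.4%). In Ctrl_LNA without Ctrl_LNA 48 it took 28.0% ± 5.43 (16.99% to 36.2%). In Ctrl_LNA 48 that share was 4.77%.

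**Figure D3:**
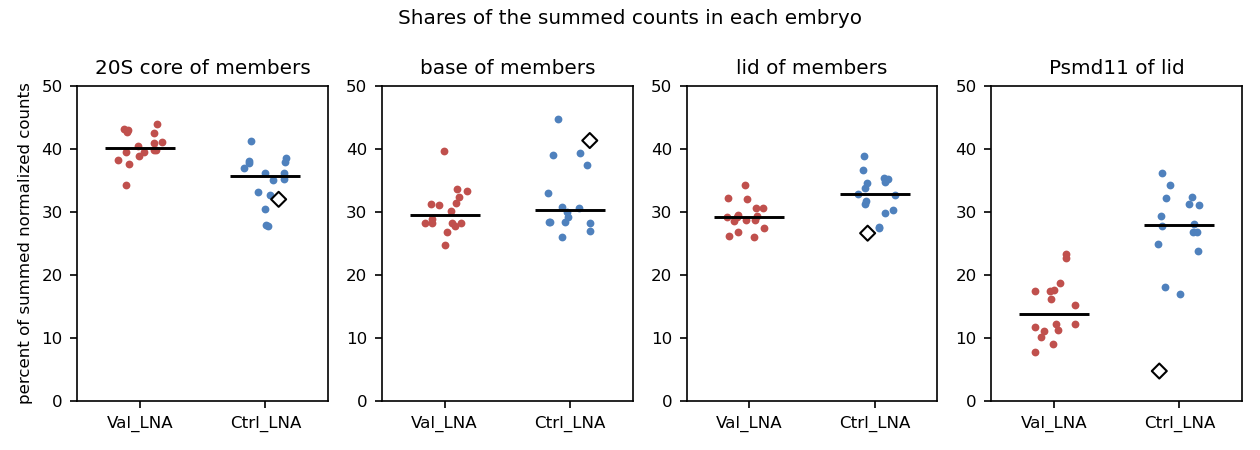
Percent of the summed normalised counts of the 32 genes that came from the 20S core, the base and the lid, and percent of the lid counts that came from Psmd11, with 1 point per embryo, Val_LNA at the left, Ctrl_LNA at the right, bars at group medians and an open diamond for Ctrl_LNA 48. The medians of the core share are 40.2% in Val_LNA and 35.7% in Ctrl_LNA, and those of the Psmd11 share 13.8% in Val_LNA and 28.0% in Ctrl_LNA.

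Levels per kilobase of the principal transcript placed the genes on a common scale. Psmd4 had the highest level in both groups, with 855 ± 390 normalised counts per kb in Val_LNA and 1063 ± 242 in Ctrl_LNA without Ctrl_LNA 48 (SD, n = 16 and 15). In those controls Psmd11 came next, at rank 2 of 32 with 556 ± 200 per kb, ahead of Psma1 (535) and Psmd7 (508), which did not differ from it beyond their spread. In Val_LNA embryos Psmd11 had 223 ± 144 per kb and rank 21 of 32. The lowest levels were those of Psmc4, with 61.7 per kb in Val_LNA and 103 in these controls, and of Psmd13, with 94.3 in Val_LNA and 80.7 in these controls. Most of the ATPases were low too: besides Psmc4, the genes Psmc2, Psmc3, Psmc5 and Psmc6 lay between 99.6 and 164 per kb in Val_LNA. In these controls the same genes lay between 114 and 217. Psmc1 stood higher, with 273 per kb in Val_LNA and 328 in these controls. In the core the extremes in the controls were Psma1 and Psmb4, and Psmb4 had 98.4 per kb in Val_LNA and 193 in these controls.

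**Figure D4:**
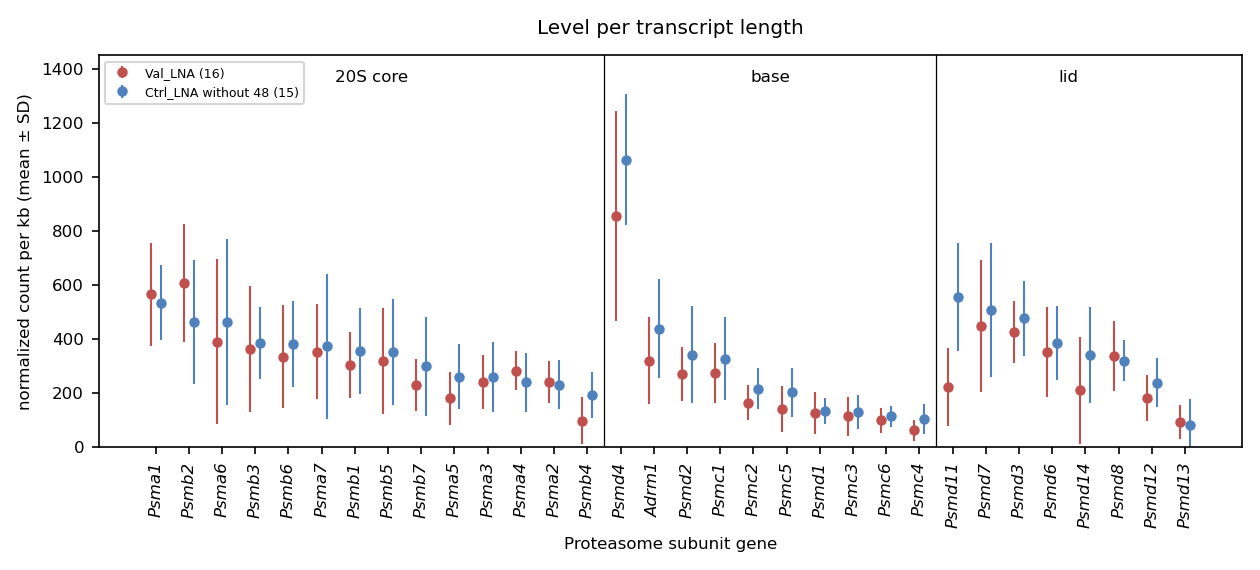
Normalised count per kb of the principal transcript (mean ± SD, linear axis) for the 32 genes, with Val_LNA (16 embryos) left of Ctrl_LNA without Ctrl_LNA 48 (15 embryos) for each gene, ordered within 20S core, base and lid by the control level. Psmd4 stands highest in both groups, and Psmd11 has 223 per kb in Val_LNA and, at the top of the lid, 556 in these controls.

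The genes varied together from embryo to embryo. Over 31 embryos (without Ctrl_LNA 48), with each group centred on its own mean, the median Pearson correlation of log2 values over the 496 pairs of proteasome genes was 0.322, and 75.6% of the pairs were positive, where all pairs of tested genes had a median of 0.009 and 51.22% positive. The median was 0.36 within the core, 0.314 within the base and 0.429 within the lid, and across subcomplexes it was 0.419 for pairs of core and lid genes, 0.283 for core and base and 0.276 for base and lid. Psmd11 had a median correlation of 0.46 with the other 31 genes, 90.32% of them positive. All genes of an embryo share its library and its size factor. These correlations carry no p, and their cause was not tested. Some embryos stood out as a whole. Val_LNA 7 had the highest count of all embryos for 4 of the 32 genes and a sum of 25087. Val_LNA 1 had the lowest for 5 genes and a sum of 9375. Among the controls, Ctrl_LNA 32 had the lowest for 6 genes.

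**Figure D5:**
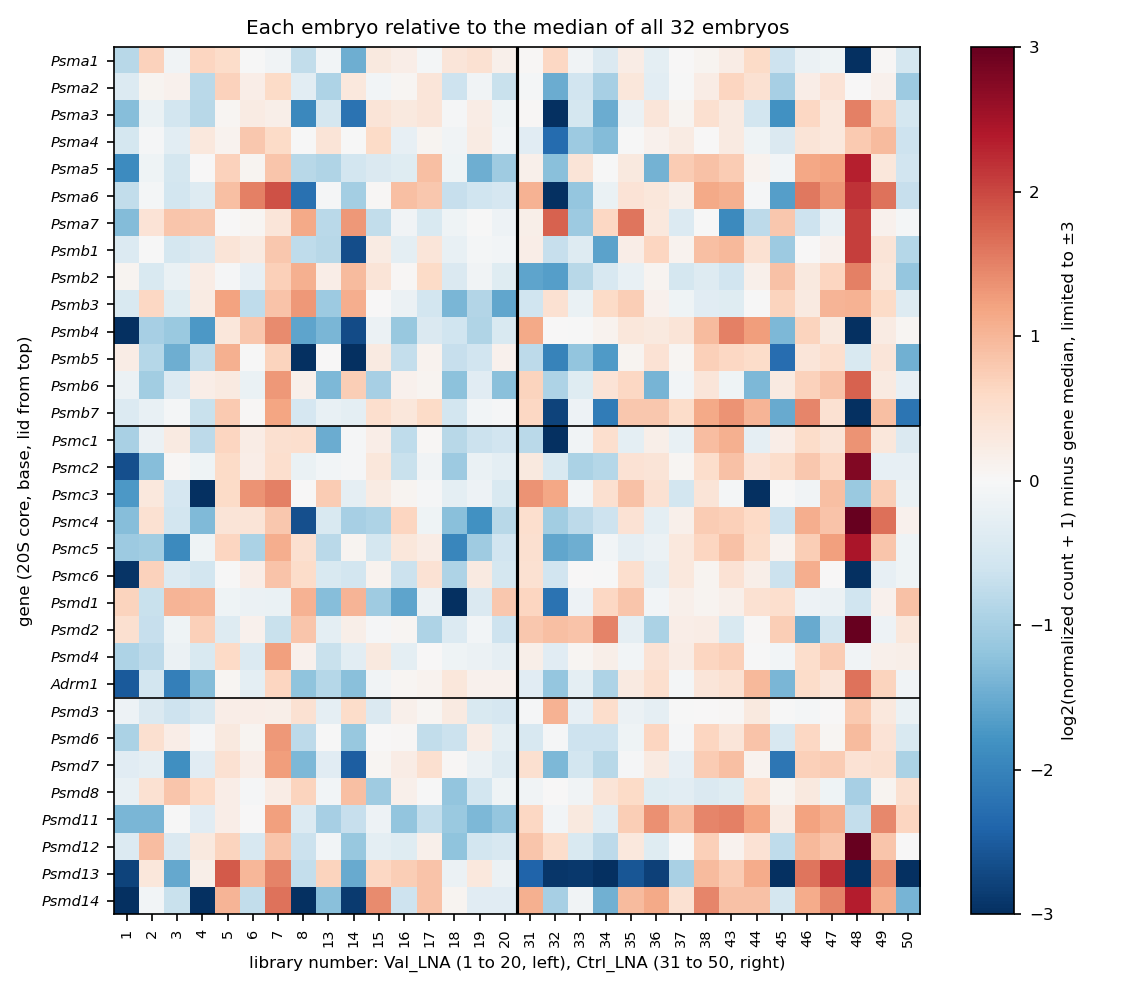
Each embryo relative to the median of all 32 embryos, as log2(normalised count + 1) minus the median of the gene (colour, limited to ±3), with Val_LNA embryos at the left of the vertical line, Ctrl_LNA embryos at the right and genes from top to bottom as 20S core, base and lid. The column of Ctrl_LNA 48 holds both extremes, and the row of Psmd11 is lower in Val_LNA than in Ctrl_LNA. The row of Psmd13 is low in Ctrl_LNA 31 to 37, 45, 48 and 50.

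Promoter windows of 250 bases before to 50 after the start were found in RefSeq (GRCm38.p6) for 26 of the 32 genes, 11 of the core, 9 of the base and 6 of the lid. The ETS-family core CCGGAAG, searched on both strands, was in the windows of 11 of 26 genes (42.3%), where 8.86% of all 32851 windows in the table hold it. Of these, 1 was a core gene (Psma6), 6 were base genes and 4 were lid genes. The NF-Y box CCAAT was in 11 of 26 genes (42.3%) against 37.4% of all windows, in 6 core, 4 base and 1 lid gene. TGACNNNGC, the core of the antioxidant response element to which CNC factors such as Nfe2l1 bind, was in 5 of 26 (19.2%) against 12.4% of all windows, GCATGCG (nuclear respiratory factor) in 2 (7.69%) against 3.58%, and TATAAA in 3 (11.5%) against 13.6%. The 26 genes have 28 windows, and a gene counts if any of its windows holds the motif. The share over all windows is per window instead, and it was not matched for base composition. None of these motifs is contained in another. A match is a description of these letters, not a site of binding. Stretches around the box are shown for 3 more cap genes so that its setting can be compared with that of Psmd11, with CCGGAAG or its reverse complement in capitals and each sequence on the gene's own strand.
Psmc2 (chr5:21785175-21785214, plus strand): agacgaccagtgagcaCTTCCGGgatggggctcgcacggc
Psmd4 (chr3:95042716-95042755, minus strand): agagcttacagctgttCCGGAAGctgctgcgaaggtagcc
Psmd12 (chr11:107479495-107479534, plus strand): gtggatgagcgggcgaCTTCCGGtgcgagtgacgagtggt
The box begins at position -84 in the window of Psmc2 shown, -125 in Psmd4 and -17 in Psmd12, counted from the annotated start. Psmc2 has a second annotated start, whose window holds the box at -24. Of the 11 genes with the box 9 had a negative log2 fold change (10 without Ctrl_LNA 48), and of the 15 genes whose windows lack it 11 did (9 without Ctrl_LNA 48). The median was -0.36 for genes with the box and -0.26 for genes without it, and -0.32 and -0.26 without Ctrl_LNA 48. Of all tested genes 35.7% had a negative value, and 45.8% without Ctrl_LNA 48. These counts carry no test.

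Around the proteasome, 52 genes of 8 related lists were in the table and 50 were tested. In limma 1 was called lower (Vcp, against 1.31% of all tested genes) and 1 higher (Psme3, against 0.881%), and their median log2 fold change was 0.02 where all tested genes had 0.26. Without Ctrl_LNA 48, 4 were called lower (Txnl1, Uba6, Usp14 and Vcp, against 2.63%) and 1 higher (Psme3, against 1.57%), with a median of -0.06 where all tested genes had 0.07.

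Psme3, the nuclear activator PA28gamma that caps the 20S core in place of the 19S cap, rose. Counts were lowest 396, median 705 and highest 1354 in Val_LNA, against 73.6, 279 and 662 in Ctrl_LNA. All 16 Val_LNA embryos were over the median of the controls and 11 over every control. Val_LNA embryos averaged 765 ± 282 and Ctrl_LNA embryos 331 ± 211 (SD, n = 16 each), for a log2 fold change of 1.45 ± 0.30 (SE, limma adjusted p = 0.00402). DESeq2 called it (1.21, adjusted p = 0.00199). EdgeR gave 1.07 and did not call it with all embryos (adjusted p = 0.0515) but did without Ctrl_LNA 48 (1.07, adjusted p = 0.0371). After centring embryos on their own medians limma did not call it with all embryos (adjusted p = 0.351) but did without Ctrl_LNA 48 (adjusted p = 0.00353). The control runs differed: the median was 599 in Val_LNA 1 to 8 and 148 in Ctrl_LNA 31 to 38, and 736 in Val_LNA 13 to 20 and 580 in Ctrl_LNA 43 to 50. This gave 2.08 between the lower runs (limma adjusted p = 0.00564) and 0.81 between the upper runs (limma adjusted p = 0.421), and the difference between them had an unadjusted p of 0.0131 and did not pass. The other activators and the inhibitor Psmf1 did not pass. Psme4 (PA200), the activator with the highest count, had 2049 ± 553 in Val_LNA and 1835 ± 316 in Ctrl_LNA without Ctrl_LNA 48.

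Vcp, the p97 ATPase that extracts ubiquitinated proteins and passes them to the proteasome, fell. Counts were lowest 82.3, median 785 and highest 1275 in Val_LNA, against 548, 1190 and 2194 in Ctrl_LNA, and 15 of 16 Val_LNA embryos were under the median of the controls and 6 under every control. Its value was -1.08 ± 0.30 (SE, limma adjusted p = 0.0432). EdgeR did not call it (-0.92, adjusted p = 0.126), while DESeq2 did. Between the lower runs and between the upper runs limma did not call it. The limma call was lost on leaving out any 1 of 17 embryos, with limma adjusted p up to 0.0782. These embryos were Val_LNA 1, 2, 3, 4, 8 and 20, and Ctrl_LNA 31, 33, 35, 36, 37, 38, 43, 44, 46, 47 and 49.

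Uba6, a ubiquitin-activating enzyme, had counts of lowest 1.59, median 49.4 and highest 129 in Val_LNA, against 0, 180 and 368 in Ctrl_LNA. The 0 was Ctrl_LNA 48, and the other controls began at 79.5, so that 11 of 16 Val_LNA embryos lay below all of them. Its log2 fold change of -2.06 ± 0.66 did not pass (SE, limma adjusted p = 0.0995), and without Ctrl_LNA 48 it fell by 2.53 on the log2 scale (limma adjusted p = 0.00115). Usp14 and Txnl1, both bound to the 19S cap, were not called by limma with all embryos but were called without that embryo, at -0.83 and -0.74 (limma adjusted p = 0.0284 and 0.0045). In Ctrl_LNA 48 each had 1.05 counts. Uchl5, the deubiquitinase bound to Adrm1, had lowest 89.3, median 173 and highest 228 in Val_LNA, against 1.05, 94.5 and 199 in Ctrl_LNA, and a log2 fold change of 1.29 that did not pass (limma adjusted p = 0.128). Without Ctrl_LNA 48 no gene of the related list that holds Uchl5 was above 0.96 or called higher. Sem1, a further lid subunit, named here after its values were seen, was under the median of the controls in 16 of 16 Val_LNA embryos, which averaged 82.7 ± 29.9 counts, against 156 ± 89.1 for Ctrl_LNA embryos (SD, n = 16 each). Its log2 fold change of -0.80 did not pass in limma (adjusted p = 0.185), while DESeq2 called it (adjusted p = 0.0237).

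None of 7 genes that control proteasome gene transcription passed. Nfe2l1, the factor that induces proteasome genes, had 1007 ± 298 counts in Val_LNA and 950 ± 256 in Ctrl_LNA without Ctrl_LNA 48, and Keap1, which holds back Nfe2l2, had a log2 fold change of 1.08 (limma adjusted p = 0.368), or 0.64 without Ctrl_LNA 48 (limma adjusted p = 0.415). All 8 assembly chaperone genes and all 5 shuttle receptor genes that were tested missed the threshold with all embryos. Psmg2, a chaperone of alpha-ring assembly, had -1.09 (limma adjusted p = 0.462) and Ubqln4, a shuttle receptor, -1.41 (limma adjusted p = 0.317). The subunits of the immunoproteasome, thymoproteasome and testis proteasome were mostly scarce: Psmb8 averaged 2.34 counts and Psma8 1.57 in Val_LNA, both under the filter, while Psmb10 had 84.1 ± 72.4 in Val_LNA and 89.8 ± 61.7 in Ctrl_LNA without Ctrl_LNA 48. Psmb11 averaged 16.8 ± 22.6 for Val_LNA and 15.7 ± 16.8 for Ctrl_LNA embryos (SD, n = 16 each). Psmb11 had a log2 fold change of -0.48 (limma adjusted p = 0.805), and edgeR gave 0.072.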

How the data were processed

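The 32 libraries were made from polyadenylated RNA of single embryos with template switching, PCR and tagmentation, per the labels' protocols. The protocols mention no molecular identifiers, so every PCR copy was counted, and the strand is not marked. The tools STAR, Bowtie2, SAMtools and DESeq2 and the build mm10 are named per the submitters' processing notes, while versions, roles and annotation were not given in the sources here. The deposited signal per gene and embryo is a read count divided by the embryo's DESeq size factor, and the deposited size factors are a ratio around 1, per the file headers. Multiplying by the size factor gave whole reads within 0.01 for 1095136 of 1095136 values (100%), and these recovered reads entered the count tests. Coordinates are from GENCODE M21 (GRCm38), matched for 99.9% of genes, counted from 1.

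The main test was limma 3.58.1 (R 4.3.3, trend and robust) on log2(normalised count + 1), over the 15559 genes that reached a normalised count of 10 in 8 or more of 32 embryos, with Benjamini-Hochberg adjustment over all of them. Such fold changes understate changes of low genes and can exceed the ratio of means where values near 0 occur. Alternatives were edgeR 4.0.16 (quasi-likelihood) and DESeq2 1.42.0 on recovered reads, other pseudocounts (0.5 and 5), filters (none, and 50 in 16 embryos), median centring, array weights, the runs of library numbers, and leaving out each embryo. The upper runs without Ctrl_LNA 48 were added after seeing the data. The scripts were tested on simulated data. Values by embryo were made with Python 3.11.15, pandas 2.3.3 and numpy 2.4.6, and figures with matplotlib 3.10.9.

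The subunit genes, the 8 related lists, the marker lists and the rule for named genes were chosen with earlier results of these data known. That rule took called genes, the pair of smallest unadjusted p in each ring, ATPase, non-ATPase and lid list, the highest and lowest level per length in core, base and lid, and in each related list the called genes or the smallest p. The symbols Paaf1 and Ecpas of the related lists were not found, nor the marker symbols Gm2022 and Smcp. Exons of Psma4, Psma5, Psmb5, Psmb7, Psmc3, Psmd1, Psmd3 and Psmd13 share bases with other annotated genes, so their counts are less certain. Levels per kb used the length of the principal transcript.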

Additional observations from a re-analysis of the deposited data

How the results depend on the processing

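Over 46 alternatives, 32 of which left out 1 embryo, 0 proteasome genes were called higher. The difference between the runs was fitted in limma only, under part of these alternatives, and passed for none of the 32 genes there. EdgeR, DESeq2 and most fits that left out 1 embryo did not include it. Psmd11 lost its call only between the lower runs (-0.89, limma adjusted p = 0.306). The number of proteasome genes called lower was 1, except for 2 with array weights or with median centring without Ctrl_LNA 48, and 0 between the lower runs; leaving out 1 embryo gave 1 to 2. Median centring shifts every gene alike, so that all tested genes had a median of -0.19 and the base -0.84, which is -0.65 relative to all tested genes as it is without centring. Leaving out 1 embryo gave medians of -0.37 to -0.20 for the 32 genes, -0.32 to -0.06 for the core, -0.45 to -0.35 for the base and -0.32 to -0.18 for the lid, and -1.44 to -1.26 for Psmd11.

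Related genes called lower, with the share of all tested genes, numbered 0 with edgeR (1.05%), without the filter (0.465%) and between the upper runs (0.212%), 3 with DESeq2 (2.17%), 2 with a pseudocount of 5 (1.63%) and 5 with array weights (3.62%). Without Ctrl_LNA 48 they numbered 4 in limma (2.63%), 3 with edgeR (1.61%), 5 with DESeq2 (2.58%) and 5 with median centring (2.78%), and leaving out 1 embryo gave 0 to 4. Related genes called higher numbered 0 with edgeR (0.186%), with median centring (0.392%) and between the upper runs (0.0129%, or 0.045% without Ctrl_LNA 48), and 2 with array weights (2.27%). The cause was not tested.

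Of 872 values of the 19 other named genes, 820 stayed on their side of the threshold with the same sign, 28 lost the call, 15 gained it and 9 changed sign. Psma1 was -0.039 with median centring without Ctrl_LNA 48 and -0.0057 between the lower runs. Psma4 was -0.14 with median centring and -0.084 between the upper runs, and Psmb2 -0.080 and -0.11 in these; the changes of sign under centring come from its common shift of all genes. Psmb11 was 0.072 with edgeR, 0.10 with DESeq2 and 0.035 between the upper runs. No paired analysis was possible because the groups share no replicate number. Genes near 0 rest on few reads each, and small differences among them were not detectable at this depth.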
